A study of Danio rerio with 18 samples.

Results

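The 6 libraries described here compare conventionalized (CONVD) with germ-free (GF) wildtype (WT) zebrafish larvae, and they are 6 of the 18 libraries of the study. They were chosen by their labels, 3 WT CONVD and 3 WT GF libraries. The larvae of these 6 pools were of the ABTL line, were raised from surface-sterilized embryos and were never fed, and total RNA of whole larvae was taken at 5 days post fertilization (DPF) in pools of 15. GF larvae stayed sterile, and CONVD larvae received at 3 DPF egg water from a dish of conventionally reared larvae of the same line. Whether each pool had its own parents or dish is not given in the sources used here, and p-values measure the spread between pools. Another 4 groups of 3 pools served for direct comparisons. These were WT larvae mono-associated from 3 to 5 DPF with the bacteria *Exiguobacterium* ZWU0009 or *Chryseobacterium* ZOR0023, and GF and CONVD *Myd88-/-* mutants (allele hu3568), which lack the adaptor through which most Toll-like receptors signal.

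Zebrafish embryos are sterile inside the chorion and meet microbes once they hatch and the gut opens. Microbes then touch the skin, the gills and the gut, where epithelial cells and leukocytes sense them through pattern recognition receptors. An unfed larva meanwhile lives on its yolk, so its sugar, lipid and steroid hormone metabolism runs without a meal. Genes of the activating protein-1 and C/EBP families and immediate early genes, set by a list, also change with colonization. The account below is of genes outside that list, which does not hold every gene that can respond early. Whether the falls below are part of an immediate early response was not tested.

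Total counts ranged from 7946202 to 10999402 in the GF and from 11787698 to 23600976 in the CONVD libraries, so every CONVD library was deeper than every GF library. The files list 31388 genes, and edgeR's quasi-likelihood test over all 18 libraries was run on the 23367 that passed a filter on low counts. Calls needed a change of 1.3-fold or more and a p below 0.05 after Benjamini-Hochberg adjustment. The test called 380 genes, 1.63% of those tested: 137 rose (0.586%) and 243 fell (1.04%) in CONVD larvae. Without the listed activating protein-1, C/EBP and immediate early genes 350 remained, 137 higher and 213 lower. The 3 CONVD pools lay on 1 side of the 3 GF pools for 376 of the 380, against 14.8% of all genes tested. The calls rest on the same pools, so this separation describes the calls and is not separate evidence. The same holds for each gene said below to have groups without overlap. With libraries thinned to the smallest total the test called 311 genes, and fits without any 1 library called 306 to 373. Levels are counts scaled to library size (CPM), and changes are log2 fold changes of CONVD against GF, most with their standard error (SE). Adjusted p-values below come from edgeR unless DESeq2 is named. All gene lists below were chosen with earlier results of these data known. Their shares of called members, set beside those of all genes, are therefore descriptions and not tests. In whole larvae, fewer cells of a type and less RNA per cell cannot be told apart. Of 38 markers of tissues from intestine and liver to muscle, lens and neurons, each was detected in all 6 pools and 0 were called by edgeR or DESeq2, with 6 at an unadjusted p below 0.05 and adjusted p-values from 0.253 to 0.998.

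Rises and falls were first described by size, read number and naming. The median change was 0.78 among the 137 rises, of which 54 were at least 2-fold, and -0.68 among the 213 falls, of which 53 were. The genes that rose drew fewer reads, with a median of the mean level of 8.75 CPM against 20.2 CPM for those that fell, on a scale not corrected for gene length. Of the 137 rises, 56 carried only a name taken from a genomic or cDNA clone or sequence. Such names were carried by 32 of the 213 falls and by 5030 of the 23367 genes tested.

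**Figure D1:**
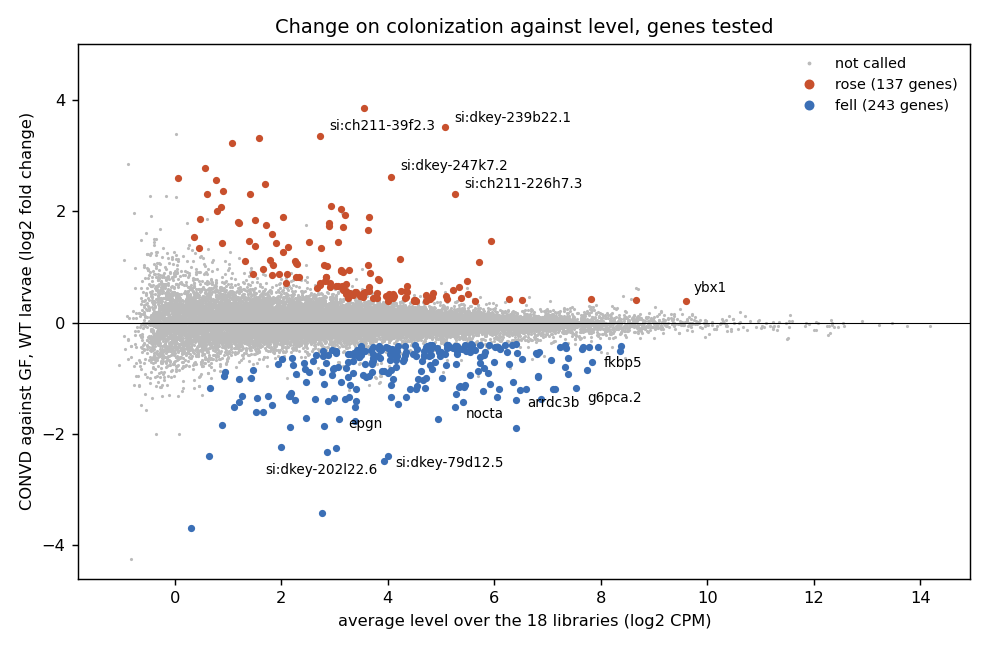
Each point is 1 of the 23367 genes tested, with its average level over the 18 libraries on the x axis (log2 CPM) and its change between CONVD and GF WT larvae on the y axis (log2). The 137 genes that rose are red and the 243 that fell are blue, and the largest rises, such as *si:dkey-239b22.1* at 3.51, exceed in size most of the falls.

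Genes higher in CONVD larvae included a whole group named from a single clone. All 7 tested genes of clone ch211-226h7 rose, by log2 changes from 1.14 to 2.56, and none of their GF pools reached a CONVD pool. The member with the most reads, *si:ch211-226h7.3* (ENSDARG00000093365), stood at 14.3, 13.4 and 15.5 CPM in the GF and 80.1, 64.1 and 72.2 CPM in the CONVD pools. Its lowest CONVD pool was far above its highest GF pool, and it rose by 2.31 (SE 0.22, adjusted p = 3.38e-05). *si:ch211-226h7.6* (ENSDARG00000076196), the member with the largest change, stood at 0.364, 0.378 and 0.725 CPM in the GF and 2.81, 2.55 and 3.51 CPM in the CONVD pools, a rise of 2.56 (SE 0.39, adjusted p = 6.31e-05). On the GRCz12tu assembly, which differs from the one the reads were mapped to, 5 annotated loci on chromosome 12 separate *si:ch211-226h7.3* from *zgc:153932*, another strongly raised gene. Only 2 of the 244 clones with at least 3 tested genes had 3 or more called genes. Genes named from 1 clone can be close copies, and reads of 50 nucleotides may be split between copies, so the 7 rises may not be separate observations. The clone was singled out after its values were seen.

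Other large rises were in genes that the files name only by clone. *si:dkey-239b22.1* (ENSDARG00000031588) stood at 6.92, 5.92 and 7.77 CPM in the GF and 70.5, 79.7 and 85.3 CPM in the CONVD pools, so that every CONVD pool held several times the level of any GF pool, a rise of 3.51 (SE 0.30, adjusted p = 1.34e-05). *si:ch211-39f2.3* (ENSDARG00000097539) stood at 1.09, 1.89 and 1.55 CPM in the GF and 14.0, 15.1 and 16.2 CPM in the CONVD pools. Its change was 3.35 (SE 0.27, adjusted p = 3.02e-08). *si:dkey-247k7.2* (ENSDARG00000103199) stood at 5.92, 3.53 and 5.29 CPM in the GF and 32.2, 26.5 and 33.6 CPM in the CONVD pools, again with no overlap, and rose by 2.61 (SE 0.20, adjusted p = 7.07e-08). A pair on chromosome 7 of GRCz12tu with 1 annotated locus between them, *si:dkey-187j14.4* and *si:dkey-187j14.6*, rose by 1.75 (SE 0.26, adjusted p = 3.87e-05) and by 0.91 (SE 0.13, adjusted p = 3.38e-05).

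Genes of surfaces and secretion were a smaller part of the rises. *mucms1*, a mucin gene, stood at 2.09, 1.76 and 1.24 CPM in the GF and 5.19, 4.46 and 5.88 CPM in the CONVD pools and rose by 1.58 (SE 0.26, adjusted p = 0.000236). Of 14 genes for mucins and glycoproteins like GP2, 3 were called and all rose, against 0.586% of all genes, with a median change over the list of 0.10 against -0.004 over all genes. The called members were *muc13a* and both copies of *zgc:153932*, which can share reads. *mucms1* was outside that list. Among transcription factors that shape epithelia, *grhl3*, a grainyhead-like factor of the epidermal barrier, stood at 2.46, 1.39 and 3.42 CPM in the GF and 5.45, 5.34 and 4.80 CPM in the CONVD pools. Its pools did not overlap and it rose by 1.06 (SE 0.20, adjusted p = 0.00115). *foxq1b*, a forkhead factor, rose by 1.11 (SE 0.21, adjusted p = 0.00136). *elf3*, an ETS factor of epithelial cells, rose by 1.04 (SE 0.23, adjusted p = 0.0204), but its call ended without GF 1 (0.99, adjusted p = 0.111 from edgeR) and without GF 2 (0.99, adjusted p = 0.0863), and with the 12 WT libraries alone (1.04, adjusted p = 0.131). These 4 genes were chosen after their values were seen.

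Other rises touched transport and membranes. *rhcgl1*, of the Rhesus glycoproteins that pass ammonia, stood at 3.28, 4.29 and 3.83 CPM in the GF and 7.49, 7.13 and 6.26 CPM in the CONVD pools and rose by 0.88 (SE 0.18, adjusted p = 0.00255). Another Rhesus glycoprotein gene, *rhcga*, went the other way and stood at 34.8, 26.6 and 28.2 CPM in the GF and 12.3, 13.5 and 13.9 CPM in the CONVD pools. It fell by 1.18 (SE 0.18, adjusted p = 0.00109). Further Rhesus genes that were not called included *rhcgb* (log2 change -0.09, adjusted p = 0.885 from edgeR) and *rhd* (log2 change -0.02). *rbp7a*, a retinol-binding protein gene, rose by 0.94 (SE 0.18, adjusted p = 0.00115). *plekhf1*, whose protein binds phosphoinositides on endosomes and lysosomes, rose by 1.45 (SE 0.24, adjusted p = 0.000468), and *PLEKHS1 (3 of 3)*, of another pleckstrin-domain family, by 1.44 (SE 0.25, adjusted p = 0.000398). Of 6 TMEM176-like membrane protein genes 2 rose, against 0.586% of all genes and 4 of 236 genes with a tmem symbol (1.69%). Of the 2, *tmem176l.4* stood at 31.3, 34.3 and 32.3 CPM in the GF and 57.8, 53.9 and 51.7 CPM in the CONVD pools. Its change was 0.74 (SE 0.09, adjusted p = 5.52e-06). The other call ended without GF 2 (0.45, adjusted p = 0.0601 from edgeR) and with DESeq2 on the 6 libraries (0.49, adjusted p = 0.0527). The TMEM176 group, *rbp7a*, *plekhf1* and *PLEKHS1 (3 of 3)* were chosen after their values were seen.

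**Figure D2:**
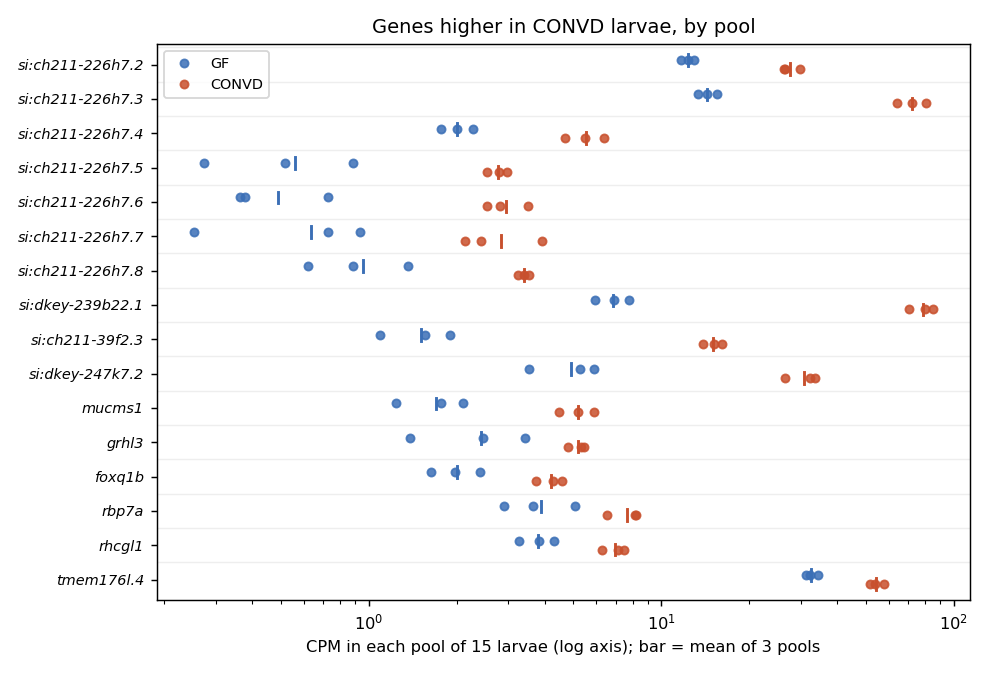
Points are CPM in each of 3 GF pools (blue) and 3 CONVD pools (red) of WT larvae on a log axis, bars are group means, and the rows are 16 genes that rose. The 7 genes of clone ch211-226h7 and the other 9 show no overlap between the groups.

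Some leukocyte genes were called. Of 36 macrophage genes 4 rose, *mpeg1.2*, *irg1l*, *ctssb.2* and *grn2*, or 11.1% against 0.586% of all genes, and 30 had a change above 0, with a median of 0.25 against -0.004 over all genes. The call of *grn2* ended under 8 settings, among them DESeq2 on all libraries (0.89, adjusted p = 0.0586), and that of *ctssb.2* under 5, among them edgeR on the 6 libraries (0.83, adjusted p = 0.0725). The 3 defining markers were detected in every pool and were not called: *mpeg1.1*, a perforin-like gene, differed by 0.42 (SE 0.21, adjusted p = 0.484), *mfap4* by 0.45 (SE 0.17, adjusted p = 0.253) and *marco*, a scavenger receptor, by 0.60 (SE 0.29, adjusted p = 0.466). Summed over the list, the level ranged from 661 to 771 CPM in GF and from 736 to 896 CPM in CONVD pools, and these overlapped. The 3 markers averaged only 2.82, 5.54 and 1.51 CPM in GF pools, so other members make up most of that sum. The count of 4 fell to between 2 and 3 when 1 library was left out, by more than 1.5 times without GF 2, GF 3 or CONVD 1. Of 35 neutrophil genes 1 rose and 1 fell, or 5.71% against 1.63% of all genes, with a median of -0.03. The summed level ranged from 816 to 867 CPM in GF and from 701 to 797 CPM in CONVD pools, without overlap. The member that fell, *pnp5a*, averaged 194 CPM in GF and 99.3 CPM in CONVD pools, so this 1 gene weighs heavily in that sum. The list is also mixed, and holds *cpa5*, an exocrine pancreas marker here, at a mean of 83.1 CPM in GF pools. The markers *mpx* (0.30, adjusted p = 0.441), *lyz* (-0.004, adjusted p = 0.998) and *npsn* (0.07, adjusted p = 0.927) were not called by edgeR. They averaged 8.17, 23.2 and 12.1 CPM in GF pools, so the lower sum does not describe these neutrophil markers. The part of leukocyte number in these values was not tested.

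Among the rises with the most reads, changes were small. *clk4a*, a kinase that controls RNA splicing, stood at 177, 192 and 189.8 CPM in the GF and 255, 245 and 250.3 CPM in the CONVD pools, a rise of 0.42 (SE 0.06, adjusted p = 5.7e-05). *ybx1*, a Y-box protein that binds messenger RNA, rose by 0.39 (SE 0.06, adjusted p = 0.000194). Without CONVD 1 (0.32) or GF 1 (0.37) its change was below the 1.3-fold limit, with adjusted p-values of 0.00126 and 0.00277 from edgeR. Of 82 cytosolic ribosomal protein genes 72 had a change above 0, with a median of 0.07 against -0.004 over all genes. Only 1 of them was called, or 1.22% against 1.63% of all genes.

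Genes lower in CONVD larvae included some with large and uniform changes. *si:dkey-79d12.5* (ENSDARG00000040284) stood at 43.8, 39.7 and 43.6 CPM in the GF and 6.55, 7.43 and 8.48 CPM in the CONVD pools, a fall of 2.49 (SE 0.14, adjusted p = 1.21e-11). *si:dkey-202l22.6* (ENSDARG00000102364) stood at 14.0, 11.97 and 14.9 CPM in the GF and 1.96, 2.38 and 3.35 CPM in the CONVD pools and fell by 2.39 (SE 0.21, adjusted p = 1.46e-07). In each of them every GF pool held several times the level of the highest CONVD pool. *ponzr4* and *ponzr3*, of the cysteine-rich PLAC8 family, fell as well: *ponzr4* stood at 8.10, 5.67 and 8.81 CPM in the GF and 1.19, 1.42 and 2.16 CPM in the CONVD pools and fell by 2.23 (SE 0.27, adjusted p = 8.34e-06), and *ponzr3* fell by 1.35 (SE 0.16, adjusted p = 3.79e-06). They were 2 of 9 tested genes of that family, against 1.04% of all genes lower, and the family was chosen after its values were seen.

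Of the ligands of the epidermal growth factor (EGF) receptor, which drive epithelial growth and repair, 2 fell, as did both genes for an inhibitor of the receptor. *epgn*, which encodes the ligand epigen, stood at 16.2, 19.4 and 20.001 CPM in the GF and 6.47, 5.17 and 5.40 CPM in the CONVD pools. The highest CONVD pool was below the lowest GF pool, and it fell by 1.72 (SE 0.14, adjusted p = 2.62e-10). *hbegfa*, which encodes heparin-binding EGF, stood at 22.8, 25.8 and 24.8 CPM in the GF and 13.4, 12.7 and 13.1 CPM in the CONVD pools and fell by 0.90 (SE 0.12, adjusted p = 1.28e-05). These were 2 of 6 ligand genes tested, against 1.04% of all genes lower. The receptor family had changes from -0.17 to 0.28 with 0 of 6 called by edgeR, 0 at an unadjusted p below 0.05 and 0 called by DESeq2. The inhibitor is ERRFI1, which acts as feedback by binding the receptor's kinase domain. *ERRFI1 (1 of 2)* stood at 40.4, 35.3 and 38.3 CPM in the GF and 14.97, 15.8 and 14.4 CPM in the CONVD pools and fell by 1.34 (SE 0.10, adjusted p = 2.18e-10), and *errfi1* fell by 0.45 (SE 0.10, adjusted p = 0.00508). The ligand, receptor and ERRFI1 groups were formed after their values were seen.

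Single genes of clotting, of protease signalling and of the matrix also fell. *f3b*, which encodes tissue factor, the starter of the clotting cascade, stood at 10.8, 7.94 and 8.60 CPM in the GF and 3.66, 3.25 and 3.72 CPM in the CONVD pools and fell by 1.39 (SE 0.18, adjusted p = 6.83e-06). *f2rl1.2*, which encodes a protease-activated receptor cleaved by such proteases, stood at 5.46, 6.81 and 7.15 CPM in the GF and 2.47, 1.92 and 2.65 CPM in the CONVD pools and fell by 1.48 (SE 0.19, adjusted p = 3.79e-06). The groups did not overlap for either gene. They were taken, after their values were seen, from 2 tissue factor genes, of which 1 was called, and 4 genes for protease-activated receptors, of which 2 were called. Of all genes tested 1.04% were called lower. The other receptor called, *f2rl2*, lost its call under 10 settings, among them DESeq2 on all libraries (-1.17, adjusted p = 0.0696). *adamts1*, a secreted metalloprotease that cuts proteoglycans, stood at 33.8, 40.3 and 38.8 CPM in the GF and 13.02, 13.8 and 13.8 CPM in the CONVD pools, with the 3 CONVD pools within 1 CPM of each other, and fell by 1.46 (SE 0.10, adjusted p = 3.25e-11).

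Of 97 genes for metalloproteases and wound repair 10 fell and 0 rose, which is 10.31% against 1.63% of all genes, with a median of -0.09 against -0.004. The members called also included the matricellular genes *cyr61*, *ctgfa* and *ctgfb* and the metalloprotease *mmp30*. *cyr61* stood at 47.0, 52.4 and 44.8 CPM in the GF and 29.4, 22.5 and 21.2 CPM in the CONVD pools and fell by 0.996 (SE 0.09, adjusted p = 9.45e-09). *ctgfa*, which encodes connective tissue growth factor, stood at 111, 121 and 96.0 CPM in the GF and 66.3, 65.9 and 62.7 CPM in the CONVD pools and fell by 0.75 (SE 0.07, adjusted p = 2.93e-08). The same direction held for *ctgfb*, with -0.59 (SE 0.10, adjusted p = 0.000182), and for *mmp30*, with -0.72 (SE 0.08, adjusted p = 5.04e-07). The count of 10 was between 8 and 10 with any 1 library left out. In contrast, 0 of 57 collagen genes were called by edgeR on all 18 libraries, with a median of -0.06. Of them 7 had an unadjusted p below 0.05. DESeq2 and edgeR on the 6 libraries each called 1, as did edgeR with thinned libraries.

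Some genes of epithelial cell-cell adhesion fell. Desmosomes join neighbouring cells through desmosomal cadherins, which plakophilins tie to keratin. Of 10 desmosome genes tested 3 fell, *dsg2.1*, *pkp3a* and *pkp2*, and 0 rose, against 1.04% of all genes lower. The median of the 10 was -0.02 and their highest change 0.32, and this group was formed after its values were seen. The desmosomal cadherin gene *dsg2.1* stood at 50.6, 44.0 and 46.8 CPM in the GF and 25.02, 28.3 and 30.1 CPM in the CONVD pools and fell by 0.76 (SE 0.08, adjusted p = 1.71e-07). *pkp3a*, a plakophilin gene, stood at 121, 113 and 117 CPM in the GF and 78.2, 82.4 and 79.9 CPM in the CONVD pools and fell by 0.54 (SE 0.06, adjusted p = 2.84e-07), and *pkp2*, another, fell by 1.27 (SE 0.17, adjusted p = 1.29e-05). *cdh1*, which encodes E-cadherin of adherens junctions, stood at 83.0, 85.8 and 88.1 CPM in the GF and 59.22, 61.5 and 64.7 CPM in the CONVD pools and fell by 0.47 (SE 0.06, adjusted p = 9.19e-06). The claudin gene *cldnb*, of tight junctions, stood at 81.7, 65.5 and 75.2 CPM in the GF and 39.6, 30.3 and 32.6 CPM in the CONVD pools and fell by 1.14 (SE 0.18, adjusted p = 0.00255). For each of these 5 genes all GF pools were above all CONVD pools. The list of 60 junction and adhesion genes does not hold *dsg2.1*. Of its members the other 4 of these genes and *cldnc* fell and *cldnd1a* rose, or 10% against 1.63% of all genes, with a median of -0.01. The call of *cldnc* ended without GF 1 (-0.47, adjusted p = 0.0649) and without GF 3 (-0.42, adjusted p = 0.099), and that of *cldnd1a* ended under 8 settings. The count of 6 was between 4 and 6 with 1 library left out. Defining keratin genes were not called: *krt4* differed by -0.23 (adjusted p = 0.448) and *krt5* by 0.02 (adjusted p = 0.983, both from edgeR).

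**Figure D3:**
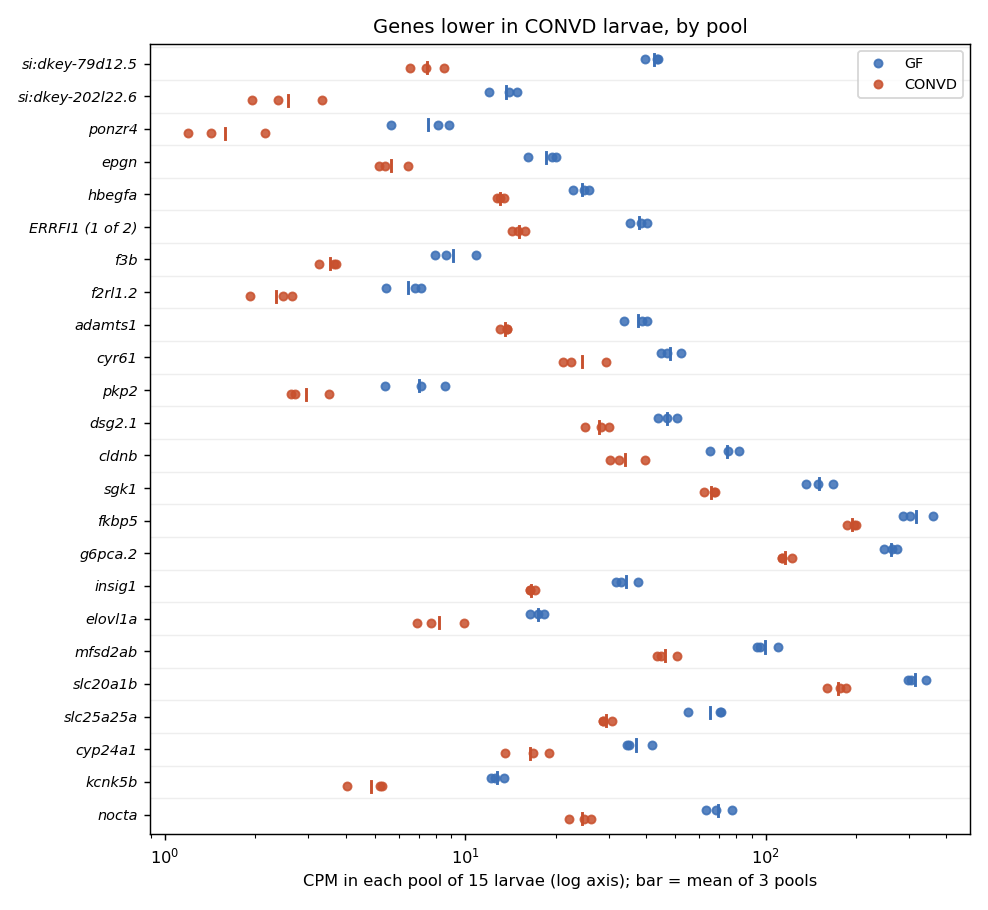
Points are CPM in each of 3 GF pools (blue) and 3 CONVD pools (red) of WT larvae on a log axis, bars are group means, and the rows are 24 genes that fell. In every row the 3 CONVD pools lie below the 3 GF pools, from *ponzr4* at 1.19 to 2.16 CPM to *fkbp5* at 187 to 199.7 CPM in CONVD larvae.

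Several genes that glucocorticoids or fasting induce had lower levels in CONVD than in GF larvae. The list of 37 glucocorticoid and fasting genes was, like the others, chosen with earlier results of these data known. It is mixed, and also holds hormone, receptor and cortisol enzyme genes. Of its members 11 fell and 0 rose, or 29.7% against 1.63% of all genes, with a median of -0.31 against -0.004. *sgk1*, a kinase that raises sodium transport under steroid hormones, stood at 167, 136 and 149 CPM in the GF and 68.1, 62.3 and 67.5 CPM in the CONVD pools. It fell by 1.198 (SE 0.09, adjusted p = 7.52e-08). *fkbp5*, a chaperone partner of the glucocorticoid receptor that dampens it, stood at 362, 287 and 302 CPM in the GF and 199.7, 187 and 197 CPM in the CONVD pools and fell by 0.70 (SE 0.11, adjusted p = 0.0012). *tsc22d3*, which encodes GILZ, a mediator of glucocorticoid action in leukocytes, fell by 0.66 (SE 0.12, adjusted p = 0.00949). Its call ended with the 12 WT libraries alone (-0.66, adjusted p = 0.06) and with edgeR on the 6 libraries (-0.66, adjusted p = 0.0952). *hsd11b2*, the enzyme that inactivates cortisol, fell by 0.49 (SE 0.10, adjusted p = 0.00305). The count of 11 was 9 with thinned libraries, 15 with DESeq2 on the 6 libraries, and 10 or 11 with 1 library left out.

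The last enzyme of glucose release was lower in the same larvae. *g6pca.2*, which encodes the catalytic subunit of glucose-6-phosphatase, stood at 263, 249 and 274 CPM in the GF and 114, 113 and 122 CPM in the CONVD pools, with the groups far apart, and fell by 1.17 (SE 0.14, adjusted p = 0.000297). Its paralog *g6pca.1* fell by 0.93 (SE 0.20, adjusted p = 0.00467), a call that ended without GF 3 (-0.81, adjusted p = 0.0638). These 2 genes, which the fasting list also holds, were the only members called of 65 genes of glucose metabolism. This was 3.08% against 1.63% of all genes, and the median of the list was -0.06.

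Lipid genes changed at few points. *insig1*, which holds the sterol sensor in the endoplasmic reticulum and so checks sterol synthesis, stood at 31.9, 33.0 and 37.7 CPM in the GF and 16.4, 17.02 and 16.4 CPM in the CONVD pools and fell by 1.04 (SE 0.10, adjusted p = 1.21e-08). *elovl1a*, an elongase of very long fatty acids, stood at 17.5, 18.3 and 16.5 CPM in the GF and 9.87, 6.93 and 7.67 CPM in the CONVD pools and fell by 1.13 (SE 0.12, adjusted p = 2.25e-07), and another elongase gene, *elovl6l*, fell by 0.86 (SE 0.11, adjusted p = 3.23e-06). *insig1* and *elovl1a* were the 2 genes called of 52 for sterol and fatty acid synthesis. This was 3.85% against 1.63% of all genes, and the median of the list was -0.02. *mfsd2ab*, whose mammalian counterpart carries lysophosphatidylcholine with omega-3 fatty acids into cells, stood at 110.0, 95.5 and 93.8 CPM in the GF and 44.8, 50.5 and 43.7 CPM in the CONVD pools. It fell by 1.105 (SE 0.10, adjusted p = 1.37e-06). Of 3 uncoupling protein genes of the mitochondrial inner membrane 2 fell, *ucp2* by 0.45 (SE 0.07, adjusted p = 3.38e-05) and *ucp3* by 0.44 (SE 0.06, adjusted p = 2.87e-05). This group of 3 was formed after its values were seen. In the list of 48 genes for fatty acid oxidation and ketones they were the only 2 called, or 4.17% against 1.63% of all genes, with a median of -0.04. No gene of the list for bile acids was called among 37, with 2 at an unadjusted p below 0.05, and DESeq2 on the 6 libraries called 0.

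Solute carriers move small molecules across membranes, and of 425 genes with an slc symbol 15 fell and 1 rose, or 3.76% against 1.63% of all genes. Phosphate carriers were among them: *slc20a1b* stood at 342, 299 and 304 CPM in the GF and 160.0, 178 and 185 CPM in the CONVD pools and fell by 0.85 (SE 0.09, adjusted p = 5.23e-06). *slc34a2b*, a sodium-phosphate cotransporter of epithelia, stood at 19.8, 18.02 and 22.7 CPM in the GF and 14.7, 12.7 and 13.3 CPM in the CONVD pools and fell by 0.58 (SE 0.11, adjusted p = 0.00155). Of amino acid carriers, *slc3a2b*, the heavy chain shared by several exchangers, stood at 275, 210.4 and 224 CPM in the GF and 159.5, 142 and 158 CPM in the CONVD pools and fell by 0.63 (SE 0.09, adjusted p = 0.000117). *slc7a3a*, a carrier of cationic amino acids, fell by 0.53 (SE 0.06, adjusted p = 4.22e-07). *slc38a4*, a sodium-coupled carrier of neutral amino acids, fell by 0.44 (SE 0.07, adjusted p = 0.0001), and without GF 3 its change of -0.37 was under the 1.3-fold limit (adjusted p = 0.00215 from edgeR).

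Further carriers served nucleotides, organic anions and vitamins. *slc25a25a*, which exchanges ATP-magnesium for phosphate across the mitochondrial membrane, stood at 71.1, 55.3 and 70.3 CPM in the GF and 30.8, 28.7 and 28.8 CPM in the CONVD pools and fell by 1.17 (SE 0.11, adjusted p = 9.39e-07). *slc22a6l*, of the organic anion transporter family, fell by 0.69 (SE 0.10, adjusted p = 1.28e-05), and *slc52a3*, a riboflavin carrier, by 0.80 (SE 0.14, adjusted p = 0.000271). Among enzymes, *cyp24a1*, the hydroxylase that breaks down active vitamin D, stood at 41.8, 35.2 and 34.5 CPM in the GF and 13.6, 16.9 and 18.9 CPM in the CONVD pools. Its GF and CONVD pools did not overlap, and it fell by 1.16 (SE 0.16, adjusted p = 0.000383). *pnp5a*, a purine nucleoside phosphorylase gene, stood at 183, 202 and 198 CPM in the GF and 96.6, 100.4 and 101 CPM in the CONVD pools and fell by 0.97 (SE 0.11, adjusted p = 4.54e-05). *odc1*, the first enzyme of polyamine synthesis, fell by 1.11 (SE 0.20, adjusted p = 0.00993), a call that ended without CONVD 3 (-1.05, adjusted p = 0.0544) and with the 12 WT libraries alone (-1.11, adjusted p = 0.0758).

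Signalling and RNA turnover genes completed the falls. *kcnk5b*, a potassium channel gene whose gain of function lengthens fins in zebrafish, stood at 13.5, 12.2 and 12.5 CPM in the GF and 5.28, 5.22 and 4.05 CPM in the CONVD pools and fell by 1.403 (SE 0.14, adjusted p = 3.07e-08). *rgs2*, which shuts off G-protein signals, stood at 14.7, 9.96 and 12.2 CPM in the GF and 7.49, 4.97 and 5.40 CPM in the CONVD pools and fell by 1.11 (SE 0.16, adjusted p = 1.92e-05), and *RGS13*, of the same family, fell by 1.42 (SE 0.24, adjusted p = 0.000267). Of 30 rgs genes tested 3 fell and 0 rose, or 10% against 1.04% of all genes lower, and the family is described because it held 3 calls. The third call, *rgs13*, ended without CONVD 2 (-1.13, adjusted p = 0.0552). *arrdc3a* and *arrdc3b*, arrestin-domain genes for the trafficking of membrane receptors, fell by 0.92 (SE 0.09, adjusted p = 2.9e-06) and by 1.39 (SE 0.22, adjusted p = 0.00387), and the call of *arrdc3b* ended with the 12 WT libraries alone (-1.38, adjusted p = 0.0573).

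*nocta*, which encodes nocturnin, a rhythmically expressed enzyme first known as a deadenylase, stood at 77.1, 68.6 and 63.1 CPM in the GF and 26.2, 24.9 and 22.2 CPM in the CONVD pools. No CONVD pool came near a GF pool, and it fell by 1.52 (SE 0.10, adjusted p = 4.02e-10). *tob1b*, an antiproliferative gene of the machinery that shortens messenger RNA tails, stood at 273, 232 and 246.1 CPM in the GF and 197, 168 and 179.7 CPM in the CONVD pools and fell by 0.47 (SE 0.08, adjusted p = 0.000597). *chac1*, a glutathione-degrading enzyme induced by amino acid stress, stood at 448, 398 and 394 CPM in the GF and 317, 281 and 276 CPM in the CONVD pools and fell by 0.51 (SE 0.09, adjusted p = 0.00135). *trib3*, a pseudokinase induced by the same stress, fell by 0.51 (SE 0.07, adjusted p = 2.73e-05). Both are among the 3 that fell of 46 genes of the unfolded protein and integrated stress responses, or 6.52% against 1.04% of all genes lower, with a median of -0.01. Of 23 genes listed here as p53 targets, and outside the immediate early list, 5 fell and 0 rose. This was 21.7% against 1.04% of all genes lower, with a median of -0.14, and the count was 5 under every setting tried. Some of the 23 can also be induced in other ways. The 5 were *trib3*, the cell cycle inhibitor gene *cdkn1a*, with -0.89 (SE 0.13, adjusted p = 4.84e-05), the cell death gene *pmaip1*, with -1.87 (SE 0.20, adjusted p = 1.35e-07), *ccng2*, with -0.53 (SE 0.09, adjusted p = 0.000311), and *plk2b*, with -0.58 (SE 0.09, adjusted p = 4.01e-05). The list's other members were not called, and the highest change among them was 1.11. *trib3* is counted in both lists, and whether p53 had a part in these falls was not tested.

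**Figure D4:**
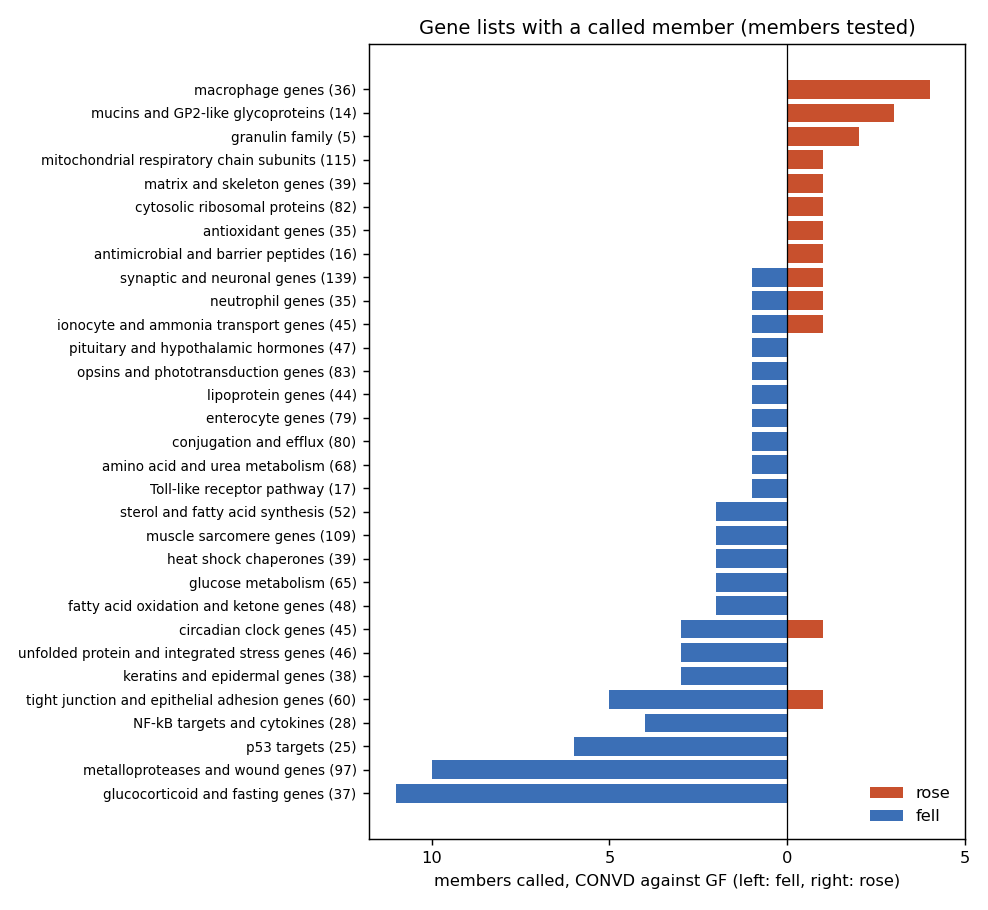
Bars give the number of members called in CONVD against GF WT larvae for each gene list with a call, to the right for rises and to the left for falls, with the number of members tested in parentheses. The longest bars are the 11 falls among 37 glucocorticoid and fasting genes and the 10 falls among 97 metalloprotease and wound genes, and lists overlap in members. The bar of p53 targets also counts *btg2*, an immediate early gene left out of the account.

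Many gene groups of the whole larva held no call. These were 16 of the 47 lists, for chemokines, interferon response, antigen presentation, complement, acute-phase and liver serum proteins, aryl hydrocarbon receptor genes, cytochrome P450 families, bile acids, exocrine pancreas, gut hormones, iron, collagens, cell division, globins, crystallins and the swim bladder. The 668 members of these lists count a gene once for each list that holds it. Of them edgeR on all 18 libraries called 0, with 48 (7.19%) at an unadjusted p below 0.05, against 10.7% of all genes tested. With edgeR 2 of them were called on the 6 libraries and 3 with thinned libraries. DESeq2 called 2 of them on all libraries and 3 on the 6 libraries. Their medians ranged from -0.16, for crystallins, to 0.19, for exocrine pancreas enzymes. Of the 380 called genes, 274 belonged to no list.

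The colonized WT groups were compared directly, with the CONVD pools in common. The authors estimated fewer bacteria per ml in the water given to CONVD larvae than in that of either mono-associated group. Dose and kind of bacteria therefore cannot be told apart in these comparisons. Against *Exiguobacterium* larvae 60 genes (0.257% of those tested) were called, 4 higher and 56 lower in CONVD larvae. The count was 24 without CONVD 2, 26 without *Exiguobacterium* 3 and 32 without *Exiguobacterium* 1. Against *Chryseobacterium* larvae 27 genes (0.116%) were called, 10 higher and 17 lower, with 54 without *Chryseobacterium* 2.

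The genes lower than with *Exiguobacterium* included several of the falls above. Of 12 named genes called in this comparison, all lower in CONVD larvae, only 4 held with any 1 library left out. Of the 12 only 3 held under every setting tried. The 4 are described here. *epgn* averaged 18.5 CPM in GF, 12.01 with *Exiguobacterium*, 6.52 with *Chryseobacterium* and 5.68 CPM in CONVD larvae. Its level in CONVD larvae differed from that with *Exiguobacterium* by -1.14 (SE 0.14, adjusted p = 2.2e-05 from edgeR). *cyr61* averaged 48.1, 37.7, 24.6 and 24.4 CPM in the same order, with a difference of -0.65 from *Exiguobacterium* (SE 0.09, adjusted p = 2.41e-04). *si:dkey-221j11.3* averaged 15.2 CPM in GF and 15.3 CPM with *Exiguobacterium*, against 5.38 CPM with *Chryseobacterium* and 5.96 CPM in CONVD larvae, a difference of -1.38 from *Exiguobacterium* (SE 0.20, adjusted p = 0.00139). These 3 calls held with any 1 library left out and under every other setting tried. For *si:dkey-79d12.5*, with 15.9 CPM under *Exiguobacterium* and 7.48 CPM in CONVD larvae, the difference of -1.09 (SE 0.15, adjusted p = 3.66e-04) was not called with edgeR on the 6 libraries alone (-1.09, adjusted p = 0.0548).

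Of 8 named genes called against *Chryseobacterium*, all higher in CONVD larvae, 5 held with any 1 library left out and 1 under every setting tried. The latter was 1 of the copies of *zgc:153932*, higher by 1.52. The other copy, higher by 0.91, lost its call only with edgeR on the 6 libraries alone (adjusted p = 0.108). The genes higher than with *Chryseobacterium* also included rises that the files name only by clone. *si:dkeyp-1h4.6* stood at 8.65, 8.57 and 6.74 CPM in the GF and 32.0, 25.4 and 32.7 CPM in the CONVD pools and rose by 1.90 (SE 0.21, adjusted p = 3.38e-05). It averaged 16.3 CPM with *Exiguobacterium* and 9.08 CPM with *Chryseobacterium*, below CONVD larvae by 1.65 in the latter (SE 0.21, adjusted p = 0.00216). *si:dkey-204a24.10* rose by 1.74 (SE 0.25, adjusted p = 0.000333) against GF larvae and stood at 3.58 CPM with *Chryseobacterium* and 13.8 CPM in CONVD larvae, a difference of 1.78 (SE 0.26, adjusted p = 0.00483). *si:ch211-39f2.3* stood at 5.80 CPM with *Chryseobacterium*, a difference of 1.28 (SE 0.21, adjusted p = 0.0053). These 3 calls held with any 1 library left out, and none held with edgeR on the 6 libraries alone (1.65, 1.78 and 1.28, adjusted p = 0.0534, 0.614 and 0.51).

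The change on colonization was also set against that in *Myd88-/-* mutants. An interaction term, the mutants' change minus that of WT larvae, was called for 190 genes (0.813%), 151 of them with a positive and 39 with a negative difference. With thinned libraries the count was 112, and with 1 library left out it was between 129 and 180. For some falls the GF mutants already stood low: *epgn* averaged 5.40 CPM in GF and 5.15 CPM in CONVD mutants, *adamts1* 14.1 and 16.7 CPM, and *si:dkey-79d12.5* 11.6 and 9.98 CPM. For other falls they stood high, as with *cyp24a1* at 82.3 and 76.9 CPM and *si:dkey-202l22.6* at 34.1 and 32.2 CPM. *rhcgl1*, which rose in WT larvae, averaged 22.6 and 22.2 CPM. Mutant and WT larvae did not come from sibling crosses, so parents and genotype cannot be told apart in such levels.

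*BX072532.1* rose in both genotypes. In WT larvae it stood at 1.18, 1.26 and 0.518 CPM in the GF and 6.55, 4.34 and 6.05 CPM in the CONVD pools and rose by 2.48 (SE 0.30, adjusted p = 1.75e-06). In mutants it averaged 0.80 CPM in GF and 2.87 CPM in CONVD pools and rose by 1.803 (SE 0.31, adjusted p = 0.00951 from edgeR), and the mutants' change minus that of WT larvae was -0.68 (SE 0.48, adjusted p = 0.844).

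**Figure D5:**
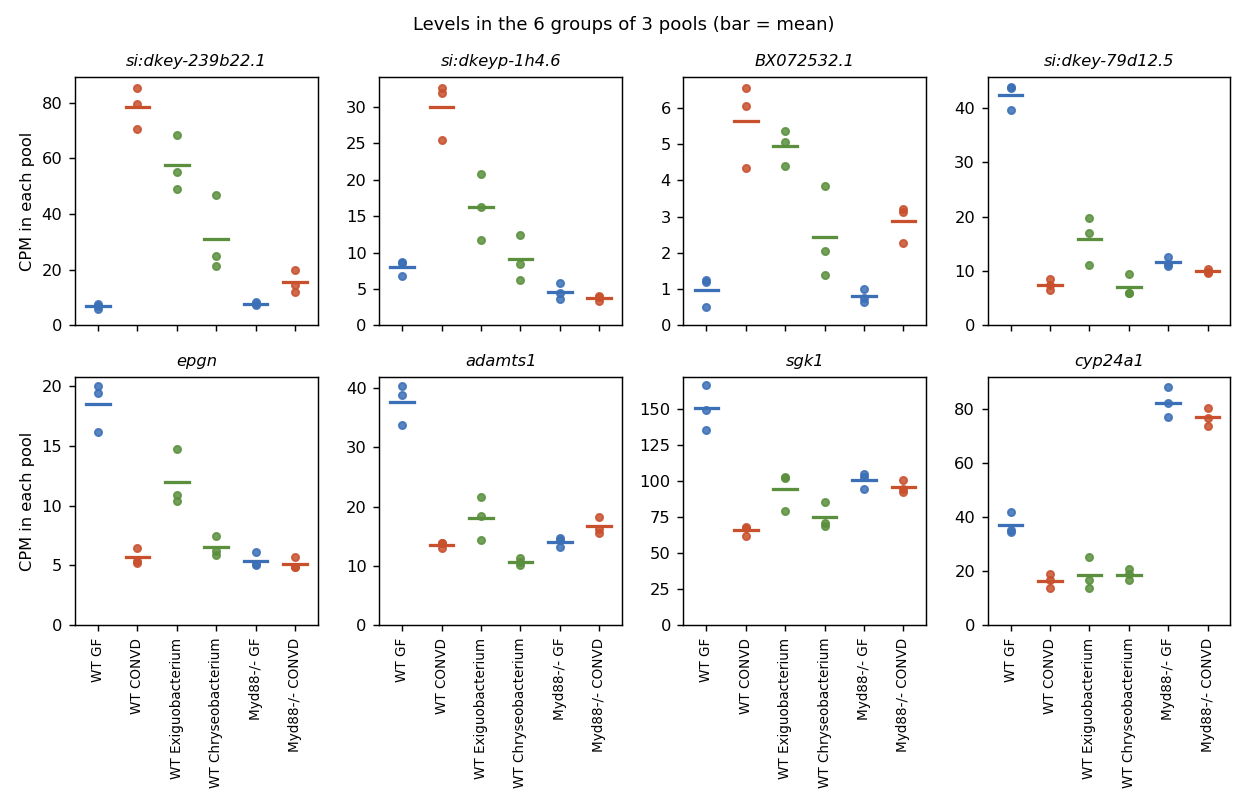
Each panel gives CPM in each pool for 1 gene in 6 groups of 3 pools, with bars for the means. In WT larvae *si:dkeyp-1h4.6* averages 30.0 CPM in CONVD and 9.08 CPM in *Chryseobacterium* larvae, and *epgn* steps down from 18.5 CPM in GF to 12.01 CPM in *Exiguobacterium* and 5.68 CPM in CONVD larvae, while in mutants *BX072532.1* is the only one of the 8 genes called.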

How the data were processed

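Total RNA of whole larvae was made into libraries with the TruSeq kit v2, which does not mark strand, and read from 1 end for 50 nucleotides. The authors mapped the reads to GRCz10 through the GeneTiles server, and the submitters' processing notes name Bowtie2, SAMtools and DESeq without versions. The values deposited by the authors are read counts per gene, 1 file a library. In 9 libraries the deposited column was classed under expected counts because 1 unnamed last entry is not a whole number. That entry was left out, and all gene values are whole counts.

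Counts of all 18 libraries were fitted in R 4.3.3 with edgeR 4.0.16 (filterByExpr at min.count 10 and min.total.count 15, TMM, robust quasi-likelihood test, 1 coefficient per group). DESeq2 1.42.0 was an alternative. Tables and plots used Python 3.11.15, pandas 2.3.3 and matplotlib 3.10.9. The fits were tested on simulated data. Standard errors were derived from the fold change and its F statistic, and CPM use TMM library sizes. Total counts per library were between 6404744 and 23600976.

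Genes were matched by Ensembl identifier. The members and the 48 gene lists (1318 symbols, 1213 matched, of which 73 through a table of gene names) were chosen with earlier results of these data known. Named genes were the 20 largest rises and 20 largest falls whose log2 CPM averaged 1 or more and whose groups did not overlap, up to 5 called genes per list, the 10 called genes with the highest CPM and symbol families with 3 or more calls, from which those described were taken. Chosen in addition after values were seen were *si:dkey-187j14.6*, *ctgfb*, *tsc22d3*, *hsd11b2*, *elovl6l*, *mfsd2ab*, *cyp24a1*, *arrdc3a*, *dsg2.1*, *cldnd1a*, *btg2* and the tissue and macrophage markers. Alternatives were RLE size factors, DESeq2, no low-count filter, no fold limit, a replicate block, the 12 WT libraries or those of a comparison alone, thinned libraries, and each library left out in turn. No sequences were analysed here, and 1 gene is not reported here.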

Additional observations from a re-analysis of the deposited data

Results flagged for a closer look

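Of the 95 called genes named for WT larvae, 62 also differed between mutants and WT larvae in their change on colonization by edgeR's interaction test, 45 with a positive and 17 with a negative difference, against 0.813% of all genes tested. The 95 were chosen for their change in WT larvae, and the difference uses the same WT pools, so the choice itself favours differences opposite in sign to the WT change and the count is a description. Of the 62 calls 33 held under every setting tried and 42 without any 1 of the 12 libraries. The other 20 ended without 1 to 10 of the libraries, with adjusted p-values up to 0.264. Differences below are the mutants' log2 change minus that of WT larvae. Among genes whose mutant levels are given or plotted, *si:dkey-239b22.1* had a difference of -2.51, *si:dkeyp-1h4.6* -2.19 and *rhcgl1* -0.91. Those of falling genes were 2.27 for *si:dkey-79d12.5*, 2.31 for *si:dkey-202l22.6*, 1.65 for *epgn*, 1.71 for *adamts1*, 1.12 for *sgk1* and 1.06 for *cyp24a1*. The calls of *si:dkey-239b22.1*, *rhcgl1* and *cyp24a1* are among the 20 that a left-out library ended (6, 8 and 6 of the 12).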

How the results depend on the processing

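The 380 genes called between CONVD and GF WT larvae came to between 302 and 462 under the other settings, of which 217 were called whichever library was left out and 203 under every setting. Of the 95 called genes named, 82 kept their call under every setting tried, and none changed direction. The 60 genes called against *Exiguobacterium* became 27 with the 12 WT libraries, 39 with edgeR on the 6 libraries, 32 with thinned libraries, and 24 to 78 with 1 library left out. The 27 called against *Chryseobacterium* became 16 with the 12 WT libraries, 7 with edgeR on the 6 libraries, and 18 to 54 with 1 library left out. The 190 genes whose change differed between mutants and WT larvae became 112 with thinned libraries and 129 to 180 with 1 left out. The cause of these shifts was not tested, beyond fewer samples or reads in such fits. With the replicate number as a block the counts were 401, 81, 32 and 205. Same-numbered GF and CONVD pools deviated together only weakly (r of 0.09, 0.09 and 0.07 across genes), and each correlated best with its own number. The labels give the numbers no meaning, so this is a hint from the data and not the design. Depth was higher in every CONVD library, which limits what can be said of genes with few reads.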
